A study of Mus musculus with 2 samples.

Results

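The predicted mirtrons numbered Mir6896 to Mir7094 are a block of mouse miRNA genes, here taken as every row of the count tables whose GENCODE M21 name runs from Mir6896 to Mir7094, with or without 1 letter. The rule found 199 of the 2202 miRNA genes in the tables, and it used names only, no read counts. Their reads were measured in adrenal gland from 4-day-old female mice of B6CASTF1/J, a first-generation hybrid strain, with 1 group and 2 libraries labelled as biological replicates 1 and 2. The labels describe the tissue as coming from different females but give both samples 1 donor identifier, so differences between the libraries stand for animals on that description alone. No genotype other than the strain and no treatment is given, and RNA was selected for a size range under 30. The miRNA genes held 4960537 reads on their annotated strand in the first library and 4506482 in the second.

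A mirtron is a short hairpin that is made by splicing. The spliceosome releases the intron as a lariat, the lariat is debranched, and the linear intron folds into a precursor that Dicer cuts without earlier cleavage by Drosha. In a tailed mirtron splicing sets only 1 end of the hairpin, and the bases on the other side must be trimmed away. Because a 3′ end set by splicing is the acceptor site of the intron, its 3p arm carries the pyrimidine-rich tract and closes with AG. Mirtrons depend on transcription of their host gene, and many are rare in small RNA libraries.

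The sequences below are shown because they carry these splice marks and belong to genes that the values turn on. The first 2 hairpins fill a whole intron, with the first 2 and last 2 bases of the intron in capitals. The 3 that follow have only their 3′ end at an acceptor, with the last 2 bases of the intron in capitals. Sequences and positions are RefSeq's (GRCm38.p6, the mm10 build).
Mir6944 hairpin, chr13:55477681-55477776, minus strand: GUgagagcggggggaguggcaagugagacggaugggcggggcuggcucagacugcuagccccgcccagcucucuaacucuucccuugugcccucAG
Mir7018 hairpin, chr4:137538286-137538370, plus strand: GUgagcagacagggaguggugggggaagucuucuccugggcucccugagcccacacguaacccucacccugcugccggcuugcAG
Mir7083 hairpin, chr9:21809941-21810000, minus strand: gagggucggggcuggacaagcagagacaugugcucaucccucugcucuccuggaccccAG
Mir7069 hairpin, chr8:84867947-84868008, plus strand: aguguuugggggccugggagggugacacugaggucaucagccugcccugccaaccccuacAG
Mir6969 hairpin, chr17:28558441-28558501, minus strand: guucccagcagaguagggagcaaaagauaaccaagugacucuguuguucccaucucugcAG

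The mature arms of the genes with at least 10 reads in both libraries follow, with the seed (bases 2 to 8) in capitals, to show the G-rich 5p and pyrimidine-rich 3p arms side by side.
mmu-miR-6944-5p: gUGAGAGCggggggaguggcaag
mmu-miR-6944-3p: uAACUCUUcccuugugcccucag
mmu-miR-7083-5p: uCGGGGCUggacaagcagaga
mmu-miR-7083-3p: uCUGCUCUccuggaccccag
mmu-miR-7018-5p: gUGAGCAGacagggaguggugggg
mmu-miR-7018-3p: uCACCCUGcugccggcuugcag
mmu-miR-7069-5p: uUGGGGGCcugggagggugacac
mmu-miR-7069-3p: cCUGCCCUgccaaccccuaca
mmu-miR-7019-5p: aUCUGGGAggggcugucaggagu
mmu-miR-7019-3p: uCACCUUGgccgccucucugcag
mmu-miR-6994-5p: aCAAAGGUgggugaagccgguga
mmu-miR-6994-3p: aACGAUCUucuccgucuuugc
mmu-miR-7031-5p: cCUGAGAGgccugaaggguggga
mmu-miR-7031-3p: aACCCUCUugcccucuccuag

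Nearly all of these hairpins had an end at an annotated splice site. This is a property of the annotation, in which the reads had no part, and it is no test of the name mirtron. All 199 lay, by at least 50% of their length, in an intron of a protein-coding gene on the same strand, spread over 194 host genes. The 3′ end of the hairpin fell exactly on the last base of the intron in 185 of 199 (93.0%), against 26 of the 794 other miRNA genes that lie in introns (3.27%). With an end counted as at a splice site when within 5 bases, 171 genes had only their 3′ end at an acceptor, the layout called 5′-tailed. A further 15 had both ends at the sites of 1 intron, 4 had only the 5′ end at a donor, and 9 had neither. Of those 9, 7 ran 6 or 7 bases past the acceptor into the exon, among them Mir6903 in Atp2b4 and Mir6904 in Parp1. The others were Mir7025 in Pdgfra and Mir7036b in Add1, whose 3′ ends lay 740 and 23955 bases before the acceptor. The Mir7025 hairpin began 30 bases before the donor.

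**Figure D1:**
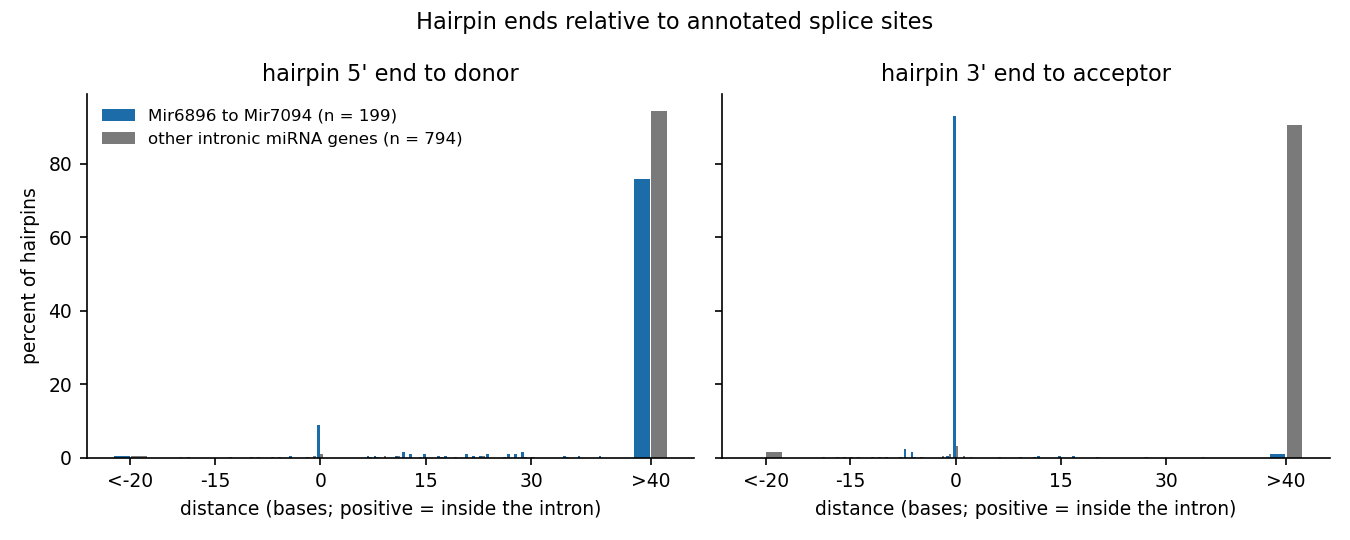
Distance in bases of each hairpin's 5′ end from the intron's donor (left) and 3′ end from its acceptor (right), as a percent of hairpins, for the 199 predicted mirtrons and for the 794 other miRNA genes that lie in introns. In the right panel the predicted mirtrons stand at 0 (93.0%), whereas 90.4% of the others end more than 40 bases inside the intron.

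The introns themselves differed widely in length. Those filled by a hairpin measured 67 to 137 bases (median 83), which is the length a whole-intron mirtron needs. Introns with the hairpin at the 3′ end alone measured 77 to 36269 bases (median 610), so that the hairpin began a median of 545 bases after the donor. In 24 of these 171 hairpins the start was at most 30 bases from the donor, and in 58 it was over 1000 bases away.

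Hairpins of the predicted mirtrons were shorter and richer in G and C than those of other miRNA genes. Their median length was 66 bases (25th to 75th percentile 62 to 72), against 93 (78 to 110), and their median GC content was 57.4% (52.1 to 62.0), against 50% (42.2 to 57.5). The predicted folding energy per base was nearly level, with a median of -0.389 kcal/mol against -0.365. The motif AG closed 185 of the 199 hairpins on the annotated strand, as against 7.49% of the others. The 44 other miRNA genes with a hairpin 3′ end at an acceptor lay close to the predicted mirtrons in these medians. They had 66 bases, 56.5% GC and -0.389 kcal/mol per base, and AG closed 59.1% of them. As many hairpins ended exactly on the last intron base, 185 of the 199 and 26 of the 44. The AG counts may therefore only restate that placement. These are properties of the annotation and were not tested.

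The annotated mature arms carried the composition of an intron end. RefSeq sequences were matched by name for 183 of the 199 genes, with 175 arms on each side. The 5p arms held 44.3% G ± 8.92 (SD over 175 arms), against 28.9% ± 10.9 over 523 arms of other genes. The 3p arms held 71.8% C and U ± 7.95 (SD over 175 arms), against 53.8% ± 13.4 over 527 arms. This richness was not particular to the block. In the last 20 bases of the hairpin, the median C and U share was 70% for the predicted mirtrons. It was also 70% for the 44 other genes with a 3′ end at an acceptor, and 50% for all other genes. The letters CAG closed 68% of these 3p arms, against 5.88% of the others. Where the hairpin ended at an acceptor, the 3p arm ended on the last intron base in 130 of 165 genes and 1 or 2 bases before it in 28. In 11 of 13 whole-intron genes with a 5p arm, that arm began on the first intron base. The deposited tables count reads per hairpin, so which arm the reads came from was not measured here.

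**Figure D2:**
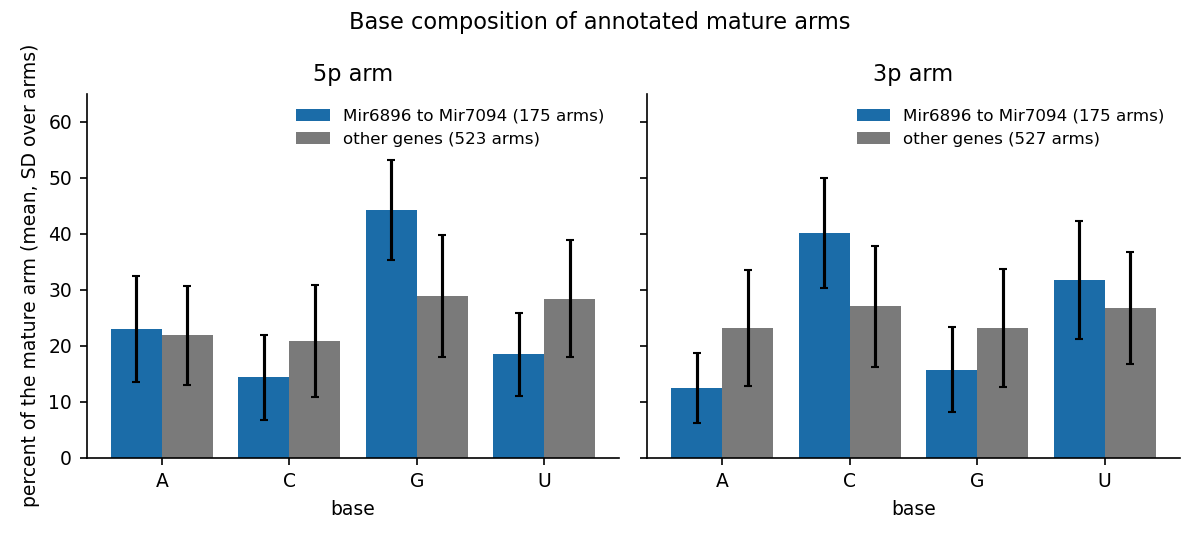
Base composition of annotated mature arms as a percent of bases (mean, with SD over arms as error bars) for 5p arms (left) and 3p arms (right), predicted mirtrons in blue and other miRNA genes in grey. The mirtron 5p arms stand out in G (44.3%), and their 3p arms are high in C (40.1%) and low in A (12.5%).

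The predicted mirtrons held a thin layer of reads over many genes. Their reads summed to 652 and 500 in replicates 1 and 2. In CPM, reads scaled to a common total of miRNA reads, this was a mean of 121 ± 14.5 (SD, n = 2) for all 199 genes. The share of miRNA reads in the first library was 0.0131%, with a 95% Wilson interval of 0.0122 to 0.0142. In the second it was 0.0111%, with an interval of 0.0102 to 0.0121. The unscaled share was higher in replicate 1, and with TMM scaling, which sets the totals by the bulk of the genes, the sums came to 126 and 116 CPM. In whole adrenal tissue, fewer cells of a type and less RNA per cell cannot be told apart. The strand of the reads followed the annotation. Of the reads on either strand of these hairpins, 652 of 655 in replicate 1 (99.5%, 95% Wilson interval 98.7 to 99.8) and 500 of 500 in replicate 2 (100%, 99.2 to 100) were on the strand of the host gene. Among other miRNA genes without a miRNA gene on the opposite strand, these shares were 99.997% and 99.996%. Hairpin and host gene share a strand, so by strand the reads of host intron RNA cannot be told apart from those of the hairpin.

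Few of them had no read, and few had many. At least 1 read in both libraries was found for 102 of the 199 genes (51.3%), against 29.5% of all miRNA genes. At least 10 reads in both, the rule for a detected gene, was met by 7 (3.52%), against 17.1% of all. Hairpins whose sequence recurs elsewhere lose reads, because reads with more than 1 place in the genome went to no gene. Runs of 18 bases shared with another annotated hairpin were found for 2 of the 199, Mir6970 and Mir7065, and for 1133 of the 2003 other genes. Among genes without such a run the backgrounds were 47.9% for at least 1 read in both libraries and 26.3% for at least 10. For summed reads, 37 of the predicted mirtrons had 0 (18.6%), 122 had 1 to 9, 40 had 10 to 99 and none had 100 or more. A sum of 0 was found for 62.3% of all miRNA genes and 43.4% of the other genes without a shared run. Of the 44 other genes with a hairpin 3′ end at an acceptor, 25% had 0. For the 37 at 0, this count allows up to 6.05e-05% of the miRNA reads in replicate 1 and 6.66e-05% in replicate 2.

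**Figure D3:**
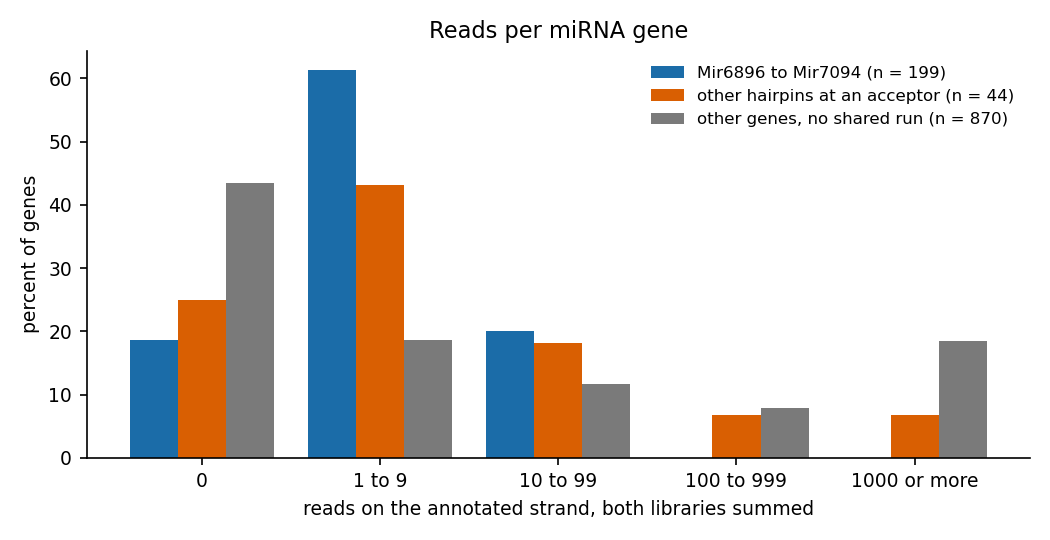
Percent of genes by the sum of their reads over both libraries, for the 199 predicted mirtrons (blue), the 44 other miRNA genes with a hairpin 3′ end at an acceptor (orange) and the 870 other genes without a shared run (grey). Predicted mirtrons gather at 1 to 9 reads (61.3%), and none reaches 100.

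Among them the highest was Mir6944, which fills intron 9 of Dbn1, the gene of the actin-binding protein drebrin. It had 30 reads in replicate 1 and 38 in replicate 2 (7.24 CPM ± 1.69, SD, n = 2), and it ranked 324th of the 2202 miRNA genes. Replicate 2 was the higher, with an interval of the ratio that spans 0. The log2 ratio of replicate 2 over replicate 1 was 0.61 (95% exact interval -0.12 to 1.35), with an adjusted p of 0.122 by the exact binomial test.

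Mir7083 lies at the end of intron 39 of Dock6. It had 28 reads in replicate 1 and 14 in replicate 2 (4.38 CPM ± 1.79, SD, n = 2). Replicate 1 was the higher, with a log2 ratio of -0.73 whose exact interval (-1.77 to 0.24) spans 0.

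Mir7018 fills intron 43 of Hspg2, the gene of perlecan, a proteoglycan of basement membranes. It had 19 and 20 reads in replicates 1 and 2 (4.13 CPM ± 0.430, SD, n = 2), with nearly the same count in each. Mir7069 lies 28 bases after the donor of a short intron of Farsa, which encodes a subunit of phenylalanyl-tRNA synthetase. It had 20 and 15 reads (3.68 CPM ± 0.497, SD, n = 2).

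The other detected genes stood just above the minimum of 10 reads. Mir7019 in Pink1, the gene of a mitochondrial kinase, had 10 and 15 reads (2.67 CPM ± 0.928, SD, n = 2). Its hairpin also overlaps an exon of another annotated transcript, and reads of such exons cannot be told apart from those of the hairpin. The same holds for 29 of the 199 genes in all, among them Mir6954 and Mir6990, described below. Mir6994 in Patl1, whose product acts in mRNA decapping, had 11 and 13 reads (2.55 CPM ± 0.472, SD, n = 2). Mir7031 in Sh2b3, which encodes an adaptor of cytokine signalling, had 12 and 10 reads (2.32 CPM ± 0.141, SD, n = 2).

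None of the 7 detected genes was called different between the libraries by the exact binomial test, and none had an unadjusted p under 0.05. Of all 377 genes tested, 68.2% were called, and of the 55 tested with no more reads than Mir6944, 10.9% were. With edgeR's exact test, which sets each gene against the general spread of the pair, 0 of the 7 were called either, against 1.86% of all. Log2 ratios ran from -0.73 (Mir7083) to 0.85 (Mir7019), with a median of 0.34 beside 0.04 over all genes tested. With the read minimum set on the mean of both libraries, which admits 10 of the mirtrons, their median was -0.069, so its sign rests on the minimum. Of the 7 detected genes, 5 had more scaled reads in replicate 2 and 2 in replicate 1. The ratio of Mir7031, at 0.01, turned its sign under 3 of the alternatives tried. Both tests compare these libraries, and the binomial test takes counting error as the only error.

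The gene with the widest gap was Mir6969, at the end of intron 2 of Clps, which encodes the pancreatic lipase cofactor colipase. It had 24 reads in replicate 1 and 0 in replicate 2, and so fell below the read minimum in 1 library. Against a limit of 3 reads in replicate 2, the TMM-scaled level in replicate 1 was 6.64-fold higher. This ratio takes the 24 reads as counted, without their counting error, so it is not a lower bound. With the minimum set on the mean of both libraries, the exact binomial test gave an adjusted p of 1.43e-06 over 396 genes, of which 67.2% were called. EdgeR's exact test over the same genes, added after the values were seen, gave an adjusted p of 0.0815, above the threshold. Beside this, the 5 epithelial markers of the miR-200 family summed to 20952 reads in replicate 1 and 865 in replicate 2, with each of the 5 higher in replicate 1. Mir217, a miRNA of pancreatic acinar cells, had 8 and 12 reads, and its neighbours Mir216a and Mir216b had 0 in both libraries (all 3 chosen after their values were seen). The part of other cell types in the Mir6969 reads was not tested.

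The 12 further genes named for their mean CPM had 5 to 20 reads in replicate 1 and 3 to 11 in replicate 2. Several sit in genes that most cells use. Mir6900 in Ndufa10, which encodes a subunit of respiratory complex I, had 12 and 9 reads. Mir7070, which fills intron 2 of the F-box gene Fbxw9, had 10 and 9. Mir7081 in Dnmt1, the maintenance DNA methyltransferase, had 9 and 7.

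Others were further apart, with more reads in replicate 1. Mir6954 in Mroh1 had 20 and 7, and Mir7075 in Terf2, a telomere-binding factor, had 14 and 4. Mir6971 in Skiv2l, an RNA helicase of the exosome pathway, had 12 and 3. Mir7010 in Gucy1a1, a subunit of soluble guanylate cyclase, and Mir7021 in Prdm2 each had 11 and 4. Of these, Mir6954 alone could be tested, by its mean of at least 10 reads, and was not called (adjusted p 0.0764, exact binomial test). The remaining genes of this group went either way. Mir6990 in Esrra, a nuclear receptor of energy metabolism, had 7 reads in each library. Mir7026 in Ep400, part of a chromatin remodelling complex, had 10 and 7, Mir7059 in Cln3, a lysosomal gene, had 6 and 11, and Mir6951 in Azin1, an antizyme inhibitor, had 5 and 8.

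**Figure D4:**
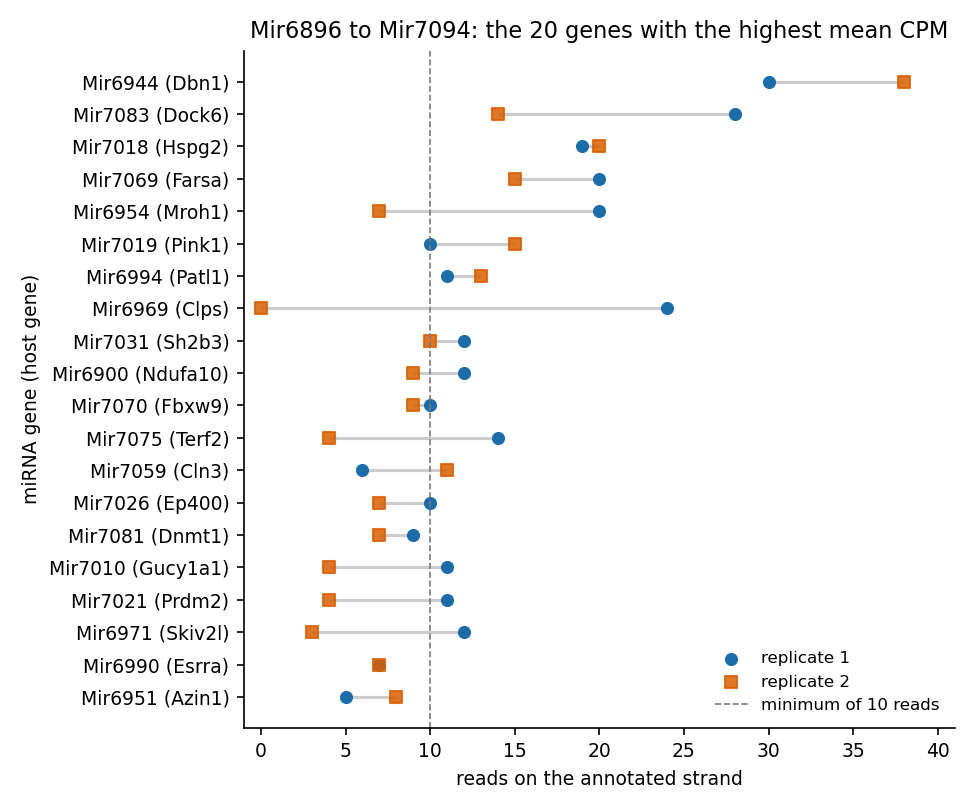
Reads on the annotated strand in replicate 1 (circles) and replicate 2 (squares) for the 20 predicted mirtrons with the highest mean CPM, host gene in brackets, with the minimum of 10 reads as a dashed line. Mir6944 leads with 30 and 38 reads, and Mir6969 has the widest gap at 24 and 0.

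The 179 genes below these had at most 11 reads in replicate 1 and 10 in replicate 2, with a median of 1 in each. They held 371 of the 652 reads in replicate 1 and 295 of the 500 in replicate 2, so the greater part of the reads came from genes with a handful each. In replicate 1 alone 36 of the 199 genes had a read, led by Mir6969, and in replicate 2 alone 24 had one, with at most 4 reads. After TMM scaling, 82 of the genes with a read had more in the first library and 80 had more in the second.

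Whole-intron genes and those with the 3′ end alone at an acceptor had equal median counts in replicate 1 but not in replicate 2. They also differed in their highest genes. The 15 whole-intron genes had a median of 2 reads in replicate 1 and 3 in replicate 2, and the 171 with the 3′ end alone at an acceptor had 2 and 1. The whole-intron genes took 12.3% and 18.2% of the mirtron reads in replicates 1 and 2, mostly from Mir6944 and Mir7018. Of the 15, 2 were detected, and of the 171, 5 were. The 4 genes with only the 5′ end at a donor had 7 reads in replicate 1, of which Mir6927 in Mllt6 had 4, and 0 in replicate 2.

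Other whole-intron hairpins, outside this block of numbers, reached higher counts. There were 8 of these, and 5 of them were detected. Mir1981 in Marc2 had 898 and 928 reads, Mir3102 in Arhgef17 had 799 and 545, and Mir877 in Abcf1, one of the first mammalian mirtrons described, had 406 and 197. Mir1224 in Vwa5b2, another long-known mirtron, had 59 and 33 reads, beside 30 and 38 for Mir6944. Mir702 in Plod3 had 257 and 135. Its hairpin ran from 9 bases before the donor to 2 bases before the end of the 102-base intron. Only its 3′ end thus met the 5-base rule. Hairpins that avoid Drosha by starting at a capped transcript were higher still, with 6985 and 7356 reads for Mir320 and 5568 and 3324 for Mir484. Of the 44 other miRNA genes with a 3′ end at an acceptor, 10 were detected (22.7%), against 7 of the 199 (3.52%). The 44 are a mixed set. The 10 detected include the 5 whole-intron genes above and Mir382 in Mirg, with 21277 and 30994 reads. Among the undetected are hairpins close to this block by name or sequence, such as Mir7094-1, Mir7094-2 and Gm27471. These sets were not compared by a test.

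**Figure D5:**
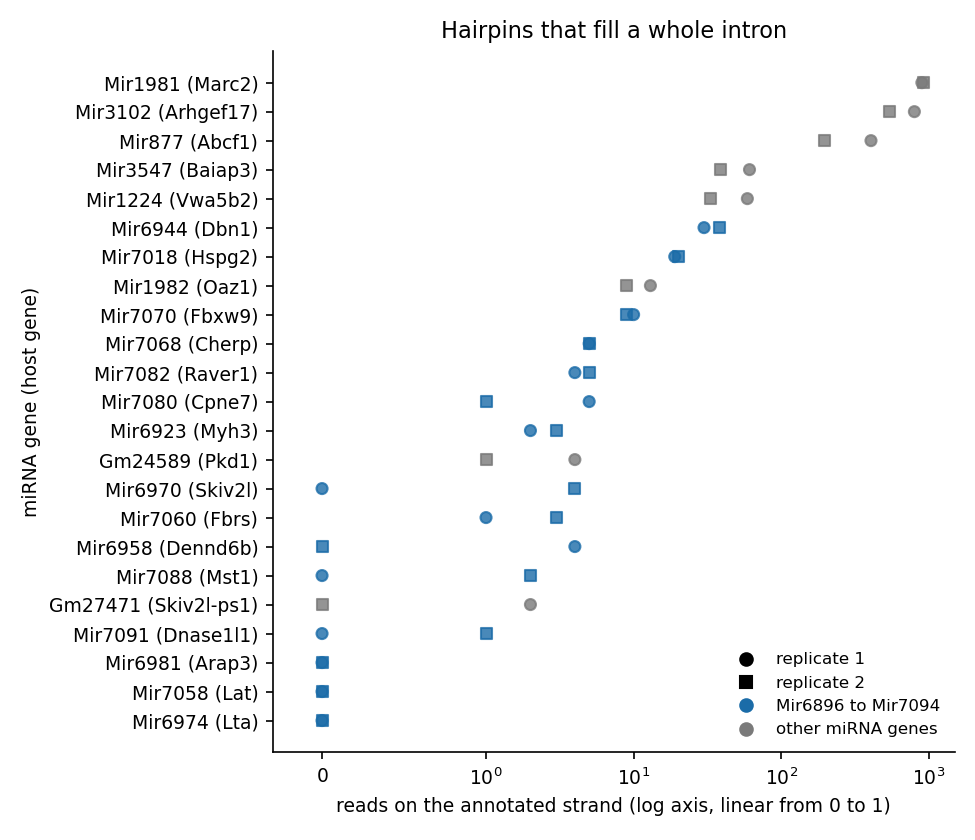
Reads on the annotated strand (log axis, linear from 0 to 1) in replicate 1 (circles) and replicate 2 (squares) for all 23 hairpins with both ends at the splice sites of 1 intron, predicted mirtrons in blue and other miRNA genes in grey. The 5 with the highest mean CPM are other genes, and Mir6944 and Mir7018 follow.

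The tables hold miRNA genes only, so the level of each host transcript was not measured here. Among the marker miRNAs examined, the neuroendocrine Mir375 had 38702 CPM ± 3285 (SD, n = 2) and Mir7b 3787 ± 602. No marker of the steroid-producing cortex was in the list. The libraries differed in markers of other cell types. Besides the miR-200 family, erythroid Mir451a and Mir144 summed to 5152 and 1168 reads, and striated muscle Mir206, Mir499 and Mir208b summed to 6188 and 39111. The endothelial markers went opposite ways, with 777971 and 246547 reads for Mir126a and 70408 and 90044 for Mir139. Whether these cell types bear on the mirtron counts was not tested.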

How the data were processed

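The 2 deposited tables hold whole-number read counts per miRNA gene, which the authors made without normalization. Assembly mm10 and annotation GENCODE M21 are named per the file headers. The sources used here name no aligner or counter. Each table has 3 count columns without names. From their values, the first holds both strands together, the second the annotated strand (used here) and the third the opposite strand. Reads that name no gene were left out of all totals. They made up 25.9% (mapped to several places), 25.8% (unmapped) and 5.96% (no miRNA gene) of replicate 1, and 27.8%, 26.1% and 6.24% of replicate 2.

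Introns were taken from every GENCODE M21 transcript on the strand of a hairpin, requiring at least 50% of the hairpin inside. The intron with an end nearest to a hairpin end was kept, and coding transcripts were preferred. No genome sequence was used. Hairpins were compared with each other for shared runs of 18 bases and folded with RNAfold 2.7.2. Mature and printed hairpin sequences are RefSeq's (GRCm38.p6).

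CPM are counts scaled to a common total of miRNA reads. Shares carry 95% Wilson intervals, and a count of 0 was given a limit of 3 reads. Without molecular identifiers, PCR copies of a molecule count again, so these intervals and limits reflect counting error alone. Reads per gene were compared between the libraries with an exact two-sided binomial test (scipy 1.17.1) against TMM-scaled totals (edgeR 4.0.16), with Benjamini-Hochberg adjustment across the 377 genes that had at least 10 reads in both, at a threshold of 0.05. The test was checked on simulated data that held counting error alone, so the check does not cover any further spread between libraries. DESeq2 1.42.0 size factors and edgeR's exact test were alternatives. The genes named are the 20 with the highest mean CPM, any other detected or called gene, and any with at least 10 reads on the opposite strand. The genes described and the lists were chosen with earlier results of these data known.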

Additional observations from a re-analysis of the deposited data

How the results depend on the processing

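The count of detected genes depended on the read minimum. It was 7 with at least 10 reads in both libraries, 27 with at least 5 in both, 19 with at least 10 in either and 102 with at least 1 in both. Taking 1 library alone gave 9 to 17 genes, the higher count without replicate 2. The mean share of miRNA reads was 0.0121% (SD 0.00145, n = 2) and rose to 0.0145% with reads on either strand, whose totals leave out reads where genes overlap. It was 0.0177% without hairpins that share a run of 18 bases, which removes reads of other genes from the total. With the minimum set on the mean, 1 gene, Mir6969, was called by the exact binomial test, and 0 by edgeR's exact test. The log2 ratio of Mir7031 turned from 0.01 to -0.042 without shared hairpins, -0.12 with total reads and -0.053 with DESeq2 size factors, uncalled each time. The median log2 ratio of the detected genes was 0.34 and turned to -0.069 with the minimum on the mean (10 genes), a move within the spread of 0.49 between the genes. Of the recomputed summary values, this median among them, 22 stayed within the spread or within 1.5 times the count. The 7 that moved further are the counts and shares given above. With 10 bases allowed in place of 5, 197 hairpins had an end at a splice site, against 190. No paired analysis was possible because the series holds a single group.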

Other observations

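Seeds were mostly not shared among the predicted mirtrons. The 350 mature arms in RefSeq held 322 distinct seeds, of which 24 recurred in more than 1 of these genes and 4 in as many as 3. One of those 4, CACCCUG, is the seed of the 3p arms of Mir7018, Mir7023 and Mir7068. The seeds of 50 arms also occurred in a miRNA outside the block. The 3p arm of Mir7069 shares CUGCCCU with the 3p arm of Mir18, a member of the miR-17/92 cluster with 5062 and 3198 reads, against 20 and 15 for Mir7069. The 3p arms of Mir6932 and Mir7039 share CUGUUCU with the 3p arm of Mir26b, whose gene had 114404 and 128916 reads. The tables do not tell the arms of a hairpin apart, so these counts are of genes.

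Of the 194 host genes, 5 held a pair of predicted mirtrons in different introns. In Skiv2l, Mir6970 in intron 14 had 0 and 4 reads in replicates 1 and 2, and Mir6971 in intron 19 had 12 and 3. In Srebf1, the gene of a lipid synthesis regulator, Mir6921 had 4 and 0 and Mir6922 had 2 and 1. In Ankrd52, Mir6914 had 1 read in each library and Mir6915 had 5 and 6. The hairpin of Mir6970 shares a run with that of Gm27471 in the pseudogene Skiv2l-ps1, so its count is uncertain. Mir7094-1 and Mir7094-2, which the naming rule leaves out, lie in introns of the immunoglobulin heavy chain pseudogene Ighv1-2 and gene Ighv1-5 and had 0 reads in both libraries. Their hairpins share runs with other hairpins, so a count of 0 sets no limit on them.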
